A study of Homo sapiens with 36 samples.

Results

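The genes described here are 35 genes of the NRF2 antioxidant response and of NADPH supply in A549 cells, a line of human lung adenocarcinoma cells used as a model of alveolar epithelium. Each gene was read from the transcript cluster that carried its symbol alone, or, where several did, from the brightest of them on average. Of the 35 genes, 32 could be read this way, out of 18417 genes named by 1 symbol. NR0B1 and AKR1B1 had no transcript cluster of their own name and PIR shared its only cluster with another symbol, so that these 3 were not analysed here. Levels were measured on 36 Affymetrix Human Gene 1.0 ST arrays in 12 groups of 3 arrays. Cells exposed to cigarette smoke extract (CSE) at 1%, 5% or 10% for 1, 3 or 5 weeks made up 9 groups, and control cells without CSE at the same weeks made up the other 3. All cells grew in DMEM with 1% fetal bovine serum after a day without serum. The CSE medium was renewed every 24 hours, and the dishes were replated each week. A549 is 1 cell line, and the study calls the 3 arrays of a group independent experiments.

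NRF2, encoded by NFE2L2, is a transcription factor that pairs with small MAF proteins and binds antioxidant response elements in DNA. In resting cells KEAP1 holds NRF2 and hands it to a ubiquitin ligase, and electrophiles such as those of tobacco smoke modify KEAP1 so that NRF2 escapes and its target genes are transcribed. The targets make glutathione and thioredoxin, supply the NADPH that reduces both, and detoxify quinones, aldehydes and epoxides. A549 cells are known to carry a mutation in KEAP1 that impairs this brake, and are used as an example of lung cancer cells in which NRF2 is active without a stimulus.

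The letters of the antioxidant response element can be looked for in the promoters of these genes, and a few are shown. Those shown were chosen after the values were seen, from genes that were higher than control in some comparisons. The promoter sequences, 250 bases before to 50 bases after a start site, come from RefSeq on GRCh38.p14, and 28 of the 35 genes had 1 or more, 37 promoters in all. The core of the element, TGACNNNGC on either strand, occurred in 12 of the 37 promoters (32.4%), against 13.3% of all 35116 promoters of the same length. These 12 belonged to 11 genes, namely CBR1, EPHX1, GCLM, GPX2, IDH1, KEAP1, MAFF, ME1, PGD, PIR and TXNRD1. Against control of the same week, at an adjusted p under 0.05, EPHX1, GCLM, ME1 and TXNRD1 were higher in some comparisons and never lower. KEAP1, PGD and GPX2 were lower in some and never higher, and CBR1, IDH1 and MAFF were each higher in some and lower in others. The AP-1 site, TGANTCA, which can overlap that core, occurred in 8.11% of the promoters of these genes and in 7.71% of all, and GCGTG, the core bound by the aryl hydrocarbon receptor, in 59.5% and 36.5%. A match describes letters and does not show that a factor binds there. In the following stretches, read along the strand of the gene, the capitals mark TGACNNNGC or its reverse complement; in ME1 the match overlaps an AP-1 site.
GCLM, chr1:93909431-93909489, minus strand, match starting at -34 from the start site: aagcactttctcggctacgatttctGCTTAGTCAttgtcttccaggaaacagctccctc
TXNRD1, chr12:104215655-104215713, plus strand, match starting at -99: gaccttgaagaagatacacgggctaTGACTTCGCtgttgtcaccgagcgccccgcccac
ME1, chr6:83431155-83431213, minus strand, match starting at -137: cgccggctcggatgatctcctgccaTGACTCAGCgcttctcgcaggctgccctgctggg
CBR1, chr21:36069840-36069898, plus strand, match starting at -159: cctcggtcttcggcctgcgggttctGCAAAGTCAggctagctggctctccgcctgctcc
No match was found in the listed promoters of NQO1 or GCLC, but sequence more than 250 bases before the start site was not searched. No promoter was listed for SLC7A11, SOD1, PRDX6, AKR1B10, PRDX1, GSR or CBR3.

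Some facts about the arrays touch the results. The 3 control arrays at 5 weeks stood apart: the SD of their log2 values was 2.15 to 2.21, that of the 33 others 2.25 to 2.31, and they lay at one end of the first principal component (38.8% of the variance), at -111 to -74.6 against -61.2 to 47.1. Their labels also conflict, since the titles give 5 weeks while the descriptions, and for replicates 1 and 2 the source names as well, say 3 weeks. They are used here by their titles, and the main results at 5 weeks are also given against the 6 control arrays of weeks 1 and 3 (the earlier controls). Control replicate 1 at 5 weeks was the lowest of the 3 for many of the genes, and values without it are given too. All 5 epithelial markers (CDH1, EPCAM, KRT7, KRT8, KRT18) had a mean above the upper quartile of all transcript clusters, and no marker of leukocytes or endothelial cells (3 each) was above their median. Of 6 markers of alveolar type II cells measured, 4 were below the median, among them the surfactant genes SFTPB and SFTPC, and 1 was above the upper quartile, ABCA3. Each array holds RNA of a whole dish, so fewer cells with a transcript and less of it per cell cannot be told apart.

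The levels of unexposed cells came first, since the KEAP1 mutation makes the baseline part of the question. On the 9 control arrays, 30 of the 32 genes had a mean above the upper quartile of all transcript clusters (8.42 on the log2 scale). Of the 32, 19 had one above the 95th percentile (10.99). These cut-offs include clusters without a gene symbol. None was below the median (6.80). The quinone reductase NQO1 lay between 13.03 and 13.24 on the 9 control arrays, and GPX2, a glutathione peroxidase, between 12.97 and 13.12. The aldo-keto reductase AKR1C2 lay between 13.14 and 13.56, and PGD, which makes NADPH in the pentose phosphate pathway, between 13.17 and 13.37. Only the carbonyl reductase CBR3 and the small MAF gene MAFF stayed under the upper quartile. CBR3 lay between 7.56 and 7.83 and MAFF between 6.95 and 7.69. Probes differ in how well they bind, so a level places a gene among the array's signals and does not rank transcripts by amount.

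How far a gene moved over the 12 groups was set against its control level. The 11 genes with a control mean of 12 or more had a median range of group means of 0.33, with the widest at 0.67, against 0.54 for all 189 genes as bright. The 16 genes between 9 and 12 had a median range of 0.78, against 0.80 for 3320 genes of that level. The 5 genes under 9 ranged from 0.52 to 2.16, with a median of 0.66 against 0.58 for 14908 genes. The median range was thus lowest among the brightest genes, while the narrowest single range was that of PRDX6, at 0.22, in the middle group. GCLM covered the widest range of the 32 and NQO1 one of the narrower ones.

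**Figure D1:**
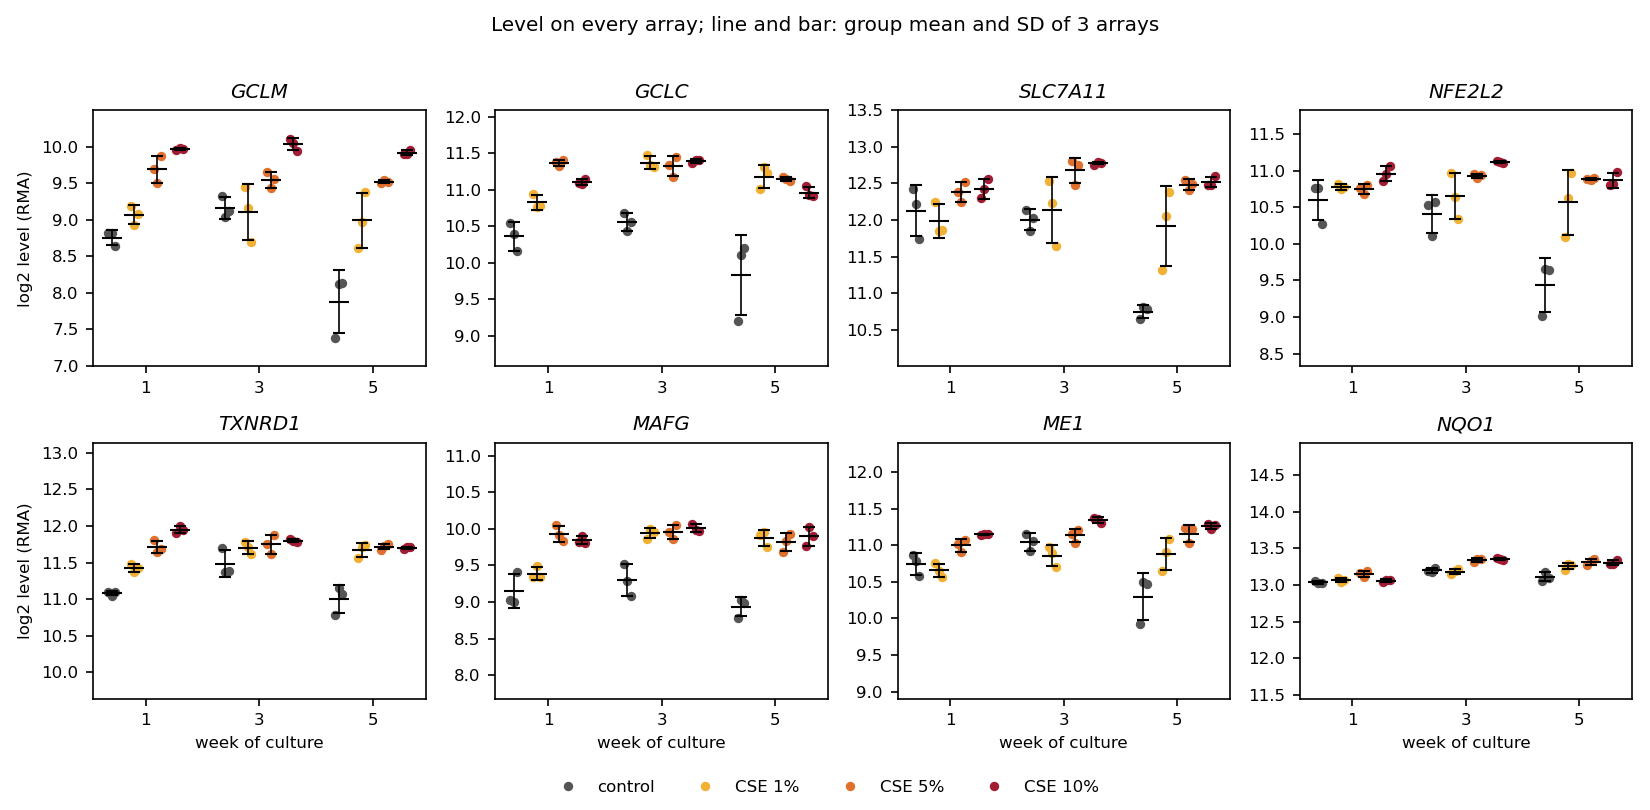
Log2 level (vertical axes, each 3.5 units high) of 8 genes on every array, by week and CSE concentration; bars give the group mean and SD of 3 arrays. GCLM was near 10 in all CSE 10% groups, its 5-week controls were between 7.38 and 8.13, and NQO1 stayed between 13.03 and 13.37 on all 36 arrays.

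Exposed cells were compared with control cells of the same week to ask which of the 32 genes responded to smoke extract, with a gene called at an adjusted p under 0.05. SE stands for the standard error of a log2 fold change in the fit, which pools the spread of all 12 groups. The 3 concentrations of a week share their control arrays, so their counts are not independent of each other. Arrays of exposed and control cells that do not overlap are common with 3 of each. With CSE 10%, 19.5% of all genes lay wholly above control and 20.8% wholly below at 1 week. These shares were 24.6% and 22.7% at 3 weeks and 28.4% and 40.8% at 5 weeks. They were 17.3% and 16.6% with CSE 5% at 1 week, and 23.7% and 30.3% with CSE 1% at 5 weeks. At 1 week, 5 genes were higher and none lower with CSE 1% (5.01% and 2.33% of all genes). By limma 2 were lower at an unadjusted p under 0.05. With CSE 5% at 1 week 9 were higher and 1 lower (8.85% and 6.12% of all genes), and with CSE 10% 10 were higher and 5 lower (11.6% and 11.3%). At 1 week the 32 genes had a median log2 fold change of 0.13, 0.16 and 0.12 with CSE 1%, 5% and 10%, while that of all genes was -0.020, -0.022 and -0.024. At 3 weeks the counts were 4 higher and 2 lower with CSE 1% (7.36% and 7.28% of all genes), 7 and 1 with CSE 5% (12.8% and 12.5%), and 9 and 4 with CSE 10% (15.3% and 15.5%). Their medians at 3 weeks were -0.0052, 0.073 and 0.013, against -0.0094, -0.050 and 0.0031 over all genes. Leaving out 1 array moved several of these counts. With CSE 1% at 1 week the 5 became 3 without control replicate 1 or 2 or CSE 1% replicate 1 or 3, and 1 gene was lower without control replicate 3. With CSE 10% at 1 week the 5 lower became 3 without control replicate 3. At 3 weeks the 4 lower with CSE 10% became 2 without control replicate 1 and 1 without control replicate 2 or CSE 10% replicate 3, and the 2 lower with CSE 1% became 1 without any array but control replicate 2. With CSE 5% at 3 weeks the 7 higher became 2 without CSE 5% replicate 3 and 3 without CSE 5% replicate 1 or control replicate 2.

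At 5 weeks most of the 32 genes differed from their control. With CSE 1%, 21 were higher and 2 lower (26.9% and 32.9% of all genes). With CSE 5%, 19 were higher and 5 lower (29.5% and 40.9%), and with CSE 10% 19 were higher and 5 lower (27.9% and 40.9%). The median of the 32 genes was 0.35, 0.25 and 0.28, against -0.11, -0.14 and -0.16 over all genes. Of all 18417 genes, 14908 had a control mean under 9, but only 5 of the 32 did. No share among genes of like level was taken, so the shares are no matched background. These counts rest in part on the 5-week control arrays. Those arrays also had the narrower spread of log2 values given above, whose part in the counts was not tested. Against the earlier controls, 8 genes were higher and 1 lower with CSE 1% (9.01% and 9.91% of all genes), 10 and 5 with CSE 5% (15.2% and 16.3%), and 12 and 5 with CSE 10% (15.7% and 19.8%). The medians were then 0.12, 0.11 and 0.086, against -0.021, -0.033 and -0.031 over all genes. Of the 21 genes higher with CSE 1% at 5 weeks, 7 were higher against both sets of controls, of the 19 with CSE 5%, 8, and of the 19 with CSE 10%, 12. Those 12 were MAFG, SLC7A11, GCLC, GCLM, TXNRD1, ME1, NQO1, AKR1C1, AKR1C2, AKR1C3, EPHX1 and SOD1. Without control replicate 1 at 5 weeks, 17, 15 and 18 genes were higher and 1, 3 and 3 lower with CSE 1%, 5% and 10%. The 5 lower with CSE 5% also became 3 without CSE 5% replicate 1 and 2 without CSE 5% replicate 3. Set against the earlier controls, the 5 lower with CSE 5% ranged from 0 to 6 and the 5 lower with CSE 10% from 2 to 7 as each array was left out, and the 8 higher with CSE 1% became 5 without CSE 1% replicate 2.

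A stricter rule, used in the methods of the series, takes a log2 fold change above 1 together with B, the log-odds of a change, above 0. By it GCLC was upregulated with CSE 5% and GCLM with CSE 10% at 1 week, 1 gene each, and none of the 32 with CSE 1% (0.608%, 0.994% and 0.375% of all genes). At 3 weeks none was (0.619%, 1.66% and 1.63% of all genes with CSE 1%, 5% and 10%), nor was any log2 fold change above 1 at an unadjusted p under 0.05 in limma's fit. At 5 weeks the same 4 genes were upregulated at each concentration, NFE2L2, SLC7A11, GCLC and GCLM, against 4.52%, 9.97% and 9.66% of all genes with CSE 1%, 5% and 10%. None of the 32 passed it at any concentration against the earlier controls. Without control replicate 1 at 5 weeks, the 4 genes became 2 with CSE 1% and 3 with CSE 5% and CSE 10%, and with CSE 1% also 2 without CSE 1% replicate 3. At 1 week GCLC did not pass with CSE 5% without control replicate 3 or CSE 5% replicate 3.

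**Figure D2:**
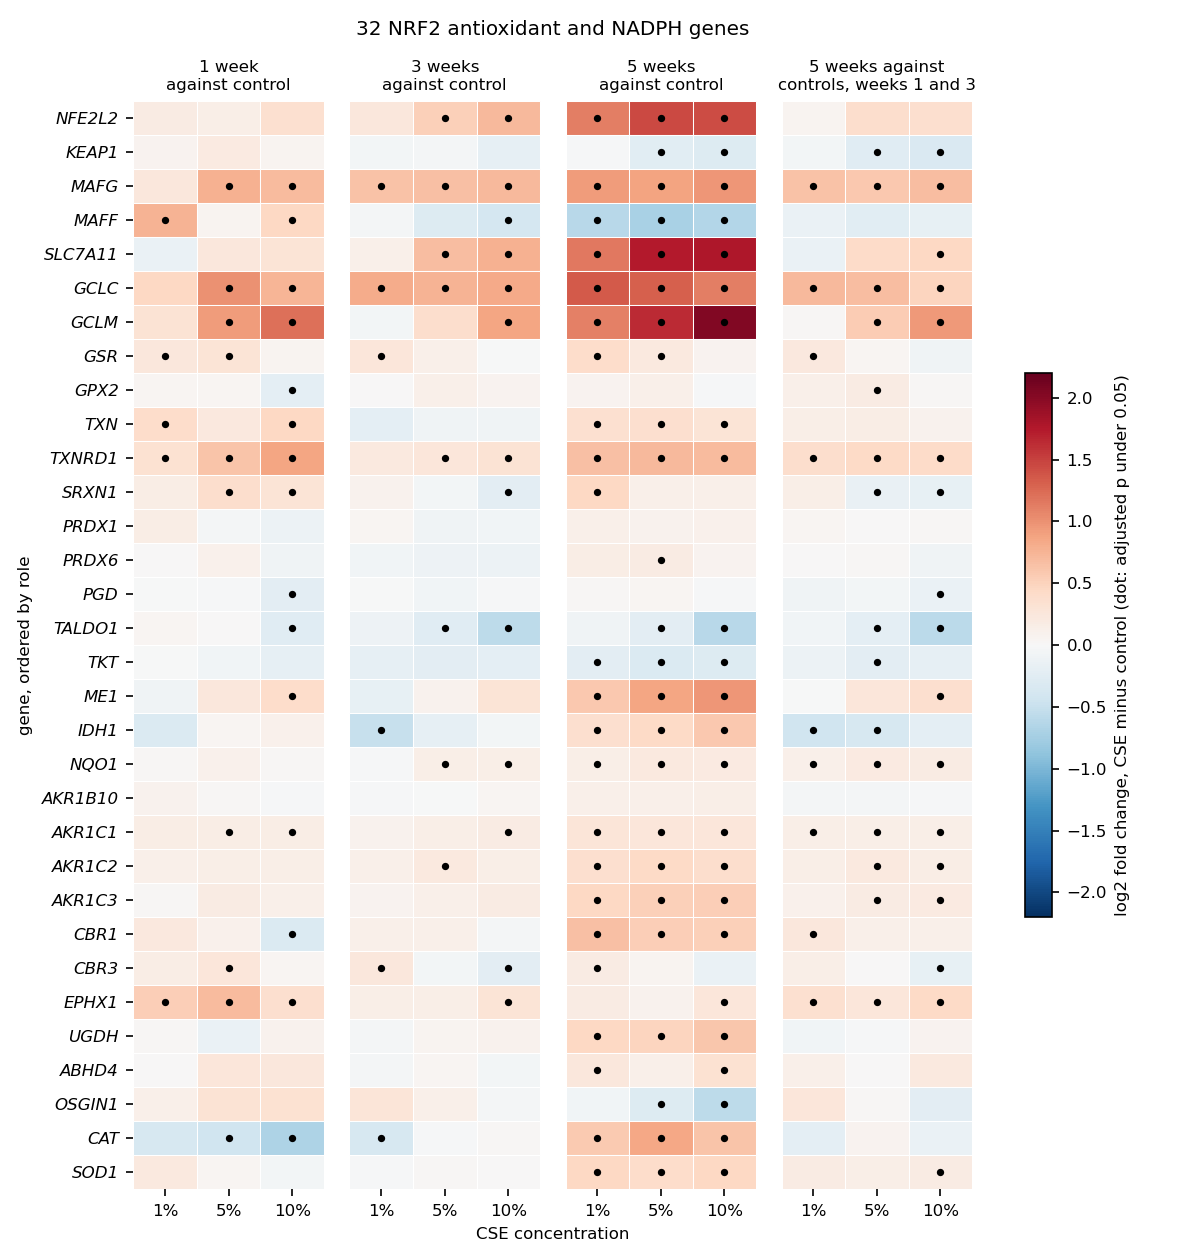
Log2 fold change, CSE minus control (colour), of the 32 genes (rows, by role) at 3 concentrations within each week and, at the right, at 5 weeks against the earlier controls; a dot marks an adjusted p under 0.05. MAFG, GCLC and TXNRD1 carry a dot in 8 of the 9 comparisons of the same week, and the dots on NFE2L2 at 5 weeks are absent at the right.

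Among the regulators, NFE2L2 itself was above its control with CSE 5% and CSE 10% at 3 weeks and with each concentration at 5 weeks. The mean level with CSE 10% was 10.96 ± 0.10, 11.12 ± 0.018 and 10.87 ± 0.10 at 1, 3 and 5 weeks (SD, n = 3 each), while that of the controls was 10.60 ± 0.28, 10.40 ± 0.26 and 9.44 ± 0.37. At 5 weeks NFE2L2 (transcript cluster 8056977) read 10.80, 10.82 and 10.99 on the CSE 10% arrays and 10.89, 10.87 and 10.90 on the CSE 5% arrays, against 9.02, 9.65 and 9.65 on the control arrays. The groups did not overlap, and 1 of the 3 controls lay far below the other two. The log2 fold change was 1.43 (SE 0.17, adjusted p = 1.3e-07) with CSE 10%, and 1.22 without control replicate 1. On the 6 earlier controls NFE2L2 lay between 10.11 and 10.76 (median 10.55), close under the exposed arrays, and the log2 fold change against them was 0.37 (SE 0.15, adjusted p = 0.064). At 3 weeks it was 0.72 (SE 0.17, adjusted p = 0.0025) with CSE 10% and 0.53 (SE 0.17, adjusted p = 0.031) with CSE 5%, the second lost without control replicate 2 or any of the CSE 5% replicates. At 1 week the largest value, 0.36 (SE 0.17, adjusted p = 0.18), did not pass.

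MAFG, a small MAF protein with which NRF2 binds DNA, rose in 8 of the 9 comparisons. At 1 week MAFG (8019796) read 9.82, 9.91 and 9.81 with CSE 10%, against 9.02, 9.0 and 9.42 on the control arrays. After 5 weeks MAFG read 9.76, 10.03 and 9.90 with CSE 10% and 8.78, 9.03 and 8.98 on the control arrays. Exposed and control arrays did not overlap in either week. MAFG had a log2 fold change of 0.70 (SE 0.11, adjusted p = 1.6e-05) at 1 week and 0.96 (SE 0.11, adjusted p = 2.9e-08) at 5 weeks, and 0.68 (SE 0.093, adjusted p = 1.8e-06) at 5 weeks against the earlier controls. MAFG has 2 further transcript clusters, in which the log2 fold change with CSE 10% at 5 weeks was 0.47 and -0.22, so both the size and the direction of its change depend on the probes read.

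The other small MAF gene, MAFF, changed direction with time. At 1 week MAFF (8073007) read 7.75, 7.87 and 8.13 with CSE 1% and 7.85, 7.50 and 7.50 with CSE 10%, against 6.97, 7.10 and 7.40 on the control arrays. At 5 weeks it read 6.93, 6.94 and 6.93 with CSE 10% and 7.65, 7.69 and 7.37 on the control arrays, which were the higher. MAFF rose with CSE 1% and CSE 10% at 1 week, by 0.76 (SE 0.12, adjusted p = 7.2e-05) and 0.46 (SE 0.12, adjusted p = 0.0053), the second lost without CSE 10% replicate 1. With CSE 5% it did not pass at 1 week. At 3 weeks MAFF was called lower with CSE 10% alone (-0.38), and 3 of 6 refits without 1 array lost that call. At 5 weeks it had a log2 fold change of -0.64 (SE 0.12, adjusted p = 4.3e-05) with CSE 10%, and -0.61 and -0.72 with CSE 1% and 5%, all called. None of these 3 passed against the earlier controls (-0.15, -0.25 and -0.18 with CSE 1%, 5% and 10%).

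KEAP1 (8034034) was called lower with CSE 5% and CSE 10% at 5 weeks. It read 8.94, 8.98 and 8.75 with CSE 10% at 5 weeks and 9.25, 9.11 and 9.22 on the control arrays, and the log2 fold change was -0.31 (SE 0.11, adjusted p = 0.018), lost without control replicate 1 or CSE 10% replicate 3. Against the earlier controls, on which KEAP1 lay between 9.0 and 9.52 (median 9.21), it was -0.33 (SE 0.095, adjusted p = 0.0092), also lost without CSE 10% replicate 3. With CSE 5% at 5 weeks the log2 fold change ran from -0.30 to -0.20 as each array was left out, and 5 of the 6 refits lost the call. Against the earlier controls KEAP1 was also called with CSE 5%, and 5 of 9 refits lost that call. No KEAP1 comparison passed at 1 or 3 weeks, where the values ran from -0.19 to 0.19.

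Glutathione synthesis held the largest changes of the 32 genes. Glutamate-cysteine ligase, which makes the first bond of glutathione, consists of a catalytic subunit (GCLC) and a modifier subunit (GCLM), and SLC7A11 is the exchanger that brings in cystine for it. GCLM (7917779) read 9.95, 9.98 and 9.96 with CSE 10% at 1 week, against 8.81, 8.82 and 8.64 on the control arrays. At 3 weeks it read 10.10, 10.05 and 9.94 with CSE 10% and 9.32, 9.04 and 9.12 on the control arrays. GCLM at 5 weeks read 9.89, 9.90 and 9.95 with CSE 10% and 7.38, 8.12 and 8.13 on the control arrays. All 9 arrays of CSE 10% lay above all 9 control arrays, and the exposed level was nearly the same at each week. GCLM rose with CSE 10% by 1.21 (SE 0.17, adjusted p = 4.6e-06) at 1 week, 0.87 (SE 0.17, adjusted p = 0.00028) at 3 weeks and 2.04 (SE 0.17, adjusted p = 1.8e-10) at 5 weeks, or 1.79 without control replicate 1. The 5-week value against the earlier controls was 0.96 (SE 0.15, adjusted p = 1.2e-05). With CSE 1% GCLM passed at 5 weeks only (1.11, SE 0.17, adjusted p = 1.2e-05), and not against the earlier controls (0.031, adjusted p = 0.93).

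GCLC rose at every concentration except with CSE 1% at 1 week. GCLC (8127158) read 11.38, 11.33 and 11.41 with CSE 5% at 1 week, against 10.55, 10.40 and 10.15 on the control arrays. At 3 weeks it read 11.37, 11.40 and 11.41 with CSE 10% and 10.68, 10.43 and 10.56 on the control arrays. At 5 weeks it read 11.01, 11.30 and 11.22 with CSE 1% and 9.20, 10.10 and 10.20 on the control arrays. In these 3 comparisons every exposed array was above every control array, and 1 control array at 5 weeks was the lowest by far. The log2 fold change was 1.00 (SE 0.15, adjusted p = 1.5e-05) with CSE 5% at 1 week and 0.83 (SE 0.15, adjusted p = 8.8e-05) with CSE 10% at 3 weeks. With CSE 1% at 5 weeks it was 1.34 (SE 0.15, adjusted p = 8.7e-08), or 1.03 without control replicate 1, and 0.72 (SE 0.13, adjusted p = 0.00018) against the earlier controls.

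SLC7A11 passed in no comparison at 1 week, where its log2 fold changes were -0.14, 0.25 and 0.29 with CSE 1%, 5% and 10%, and it was higher at 3 and 5 weeks. At 3 weeks SLC7A11 (8102800) read 12.76, 12.79 and 12.78 with CSE 10%, against 12.13, 11.85 and 12.02 on the control arrays. At 5 weeks it read 12.48, 12.48 and 12.60 with CSE 10%, and 10.65, 10.82 and 10.78 on the control arrays. The exposed arrays were high in both weeks, and the 5-week controls were the lowest. SLC7A11 rose by 0.78 (SE 0.20, adjusted p = 0.0038) at 3 weeks and 1.77 (SE 0.20, adjusted p = 3.1e-08) at 5 weeks. On the earlier controls SLC7A11 lay between 11.74 and 12.43 (median 12.08), and against them the value at 5 weeks was 0.45 (SE 0.17, adjusted p = 0.045), a call lost without any 1 of the 3 exposed arrays, control replicate 3 of week 1 or control replicate 2 or 3 of week 3. With CSE 1% at 5 weeks it was 1.17 against the 5-week controls and -0.15 against the earlier ones, a change of sign.

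The other genes of the glutathione cycle moved less. GSR, the NADPH-dependent reductase that regenerates glutathione, rose with CSE 1% in each week, by 0.25 (SE 0.065, adjusted p = 0.022), 0.27 (SE 0.065, adjusted p = 0.0057) and 0.41 (SE 0.065, adjusted p = 1.6e-05), and with CSE 5% at 1 and 5 weeks, but with CSE 10% its values were 0.062, -0.00016 and 0.081, none of which passed. GPX2 passed once, with CSE 10% at 1 week (-0.21, SE 0.055, adjusted p = 0.0075), and otherwise lay between -0.03 and 0.13.

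Thioredoxin reductase 1 (TXNRD1), which passes electrons of NADPH to thioredoxin, rose in 8 of the 9 comparisons. TXNRD1 (7958174) read 11.48, 11.37 and 11.43 with CSE 1%, 11.80, 11.64 and 11.69 with CSE 5% and 11.90, 11.99 and 11.95 with CSE 10% at 1 week, against 11.10, 11.05 and 11.10 on the control arrays. These 4 groups did not overlap and were in the order of the concentrations. After 5 weeks TXNRD1 read 11.68, 11.71 and 11.71 with CSE 10%, against 10.78, 11.15 and 11.07 on the control arrays. The log2 fold changes at 1 week were 0.34 (SE 0.086, adjusted p = 0.015), 0.63 (SE 0.086, adjusted p = 4.4e-06) and 0.86 (SE 0.086, adjusted p = 9.6e-09) with CSE 1%, 5% and 10%. The first of these was lost without control replicate 2 or CSE 1% replicate 1 or 3. At 3 weeks the values were 0.22, 0.26 and 0.31. Both calls there, with CSE 5% and CSE 10%, were lost without control replicate 2, and that with CSE 5% also without control replicate 3 or CSE 5% replicate 1 or 3. At 5 weeks the value with CSE 10% was 0.70 (SE 0.086, adjusted p = 1.5e-07), and 0.42 (SE 0.075, adjusted p = 7.7e-05) against the earlier controls.

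The other genes of the thioredoxin and peroxiredoxin system gave smaller values. TXN, thioredoxin, rose with CSE 1% and CSE 10% at 1 week (0.41, SE 0.10, adjusted p = 0.016 and 0.46, SE 0.10, adjusted p = 0.0018) and at every concentration at 5 weeks, by 0.35, 0.37 and 0.30. None of the 5-week values of TXN passed against the earlier controls, the highest being 0.15. SRXN1, sulfiredoxin, which repairs overoxidised peroxiredoxins, rose with CSE 5% and CSE 10% at 1 week (0.38 and 0.30) and with CSE 1% at 5 weeks (0.46), which did not pass against the earlier controls (0.15). It fell with CSE 10% at 3 weeks (-0.24, SE 0.072, adjusted p = 0.015). PRDX1 passed in none of the 9 comparisons in limma's fit and PRDX6 in 1, with CSE 5% at 5 weeks (0.18, SE 0.073, adjusted p = 0.031). Over all 9 comparisons PRDX1 lay between -0.12 and 0.16.

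The genes of NADPH supply went different ways. Against the 5-week controls, ME1, the cytosolic malic enzyme, and IDH1, the cytosolic isocitrate dehydrogenase, were higher with CSE. TALDO1 and TKT, transaldolase and transketolase of the non-oxidative pentose phosphate pathway, were lower there with CSE 5% and CSE 10%. ME1 (8127854) read 11.29, 11.22 and 11.28 with CSE 10% at 5 weeks, against 9.92, 10.50 and 10.47 on the control arrays. At 1 week it read 11.15, 11.16 and 11.15 with CSE 10%, against 10.86, 10.79 and 10.58 on the control arrays. Exposed and control arrays of ME1 did not overlap in either week. ME1 rose by 0.97 (SE 0.12, adjusted p = 1.1e-07) at 5 weeks, 0.37 (SE 0.10, adjusted p = 0.0058) against the earlier controls, and 0.41 (SE 0.12, adjusted p = 0.014) at 1 week, the last lost without control replicate 3. With CSE 1% and CSE 5% at 5 weeks ME1 did not pass against the earlier controls (-0.010 and 0.26).

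TALDO1 is the gene of the 32 that fell most often below its control. TALDO1 (7937465) read 11.16, 11.24 and 11.36 with CSE 10% at 3 weeks, against 11.76, 11.93 and 11.80 on the control arrays. After 5 weeks TALDO1 read 11.15, 11.18 and 11.30 with CSE 10%, against 11.80, 11.86 and 11.80 on the control arrays. Every exposed array was below every control array, and the controls of the 2 weeks read alike. With CSE 10% TALDO1 had a log2 fold change of -0.58 (SE 0.085, adjusted p = 6.7e-06) at 3 weeks and -0.61 (SE 0.085, adjusted p = 1.2e-06) at 5 weeks. It was -0.59 (SE 0.074, adjusted p = 4.3e-07) against the earlier controls, as far below as against the 5-week ones. At 1 week it was -0.27 (SE 0.085, adjusted p = 0.028), lost without control replicate 3 or CSE 10% replicate 2 or 3. TKT fell at 5 weeks at each concentration, by 0.22, 0.32 and 0.30 on the log2 scale with CSE 1%, 5% and 10%. Of these, CSE 5% passed against the earlier controls (-0.23, SE 0.082, adjusted p = 0.04).

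At 5 weeks the direction of IDH1 depended on the controls it was set against. IDH1 (8058552) read 11.91, 11.91 and 11.96 with CSE 10% and 11.52, 11.73 and 11.86 with CSE 1% at 5 weeks, against 10.85, 11.63 and 11.55 on the 5-week controls. On the earlier controls it lay between 11.97 and 12.26 (median 12.17), above every array of these 2 exposed groups. The log2 fold change with CSE 1% was 0.36 (SE 0.12, adjusted p = 0.013) against the 5-week controls and -0.44 (SE 0.10, adjusted p = 0.003) against the earlier ones. With CSE 10% it was 0.58 (SE 0.12, adjusted p = 0.00015) and -0.22 (SE 0.10, adjusted p = 0.11). Without control replicate 1 at 5 weeks it was 0.12 with CSE 1% and 0.19 with CSE 5%, neither called, and 0.34 with CSE 10%. At 3 weeks IDH1 fell with CSE 1% (-0.51, SE 0.12, adjusted p = 0.004), a call kept when any 1 of the 6 arrays was left out. PGD passed once, with CSE 10% at 1 week (-0.23, SE 0.053, adjusted p = 0.0025).

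Of the enzymes that reduce quinones, carbonyls and aldehydes, NQO1 is the one most used as a readout of NRF2. NQO1 (8002303) read 13.28, 13.29 and 13.35 with CSE 10% at 5 weeks, against 13.06, 13.18 and 13.10 on the control arrays. At 1 week it read 13.04, 13.07 and 13.07 with CSE 10%, against 13.06, 13.03 and 13.03 on the control arrays. The groups did not overlap at 5 weeks, and at 1 week they did. The log2 fold change was 0.19 (SE 0.050, adjusted p = 0.0017) at 5 weeks and 0.024 (SE 0.050, adjusted p = 0.81) at 1 week, with a 95% interval of -0.078 to 0.13 at 1 week. Its largest value was 0.21 (SE 0.050, adjusted p = 0.00084) with CSE 5% at 5 weeks, and the same arrays gave 0.20 (SE 0.043, adjusted p = 0.00076) against the earlier controls. At 3 weeks NQO1 passed with CSE 5% (0.14), lost without any 1 of the 6 arrays, and with CSE 10% (0.15), lost without control replicate 1 or 2 or CSE 10% replicate 1. With CSE 1% at 5 weeks it was 0.14, lost without control replicate 1 or CSE 1% replicate 2 or 3.

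The aldo-keto reductases AKR1C1, AKR1C2 and AKR1C3 reduce steroids and lipid aldehydes, and their sequences are so alike that the probes may not tell them apart. With CSE 10% at 5 weeks they rose by 0.27 (SE 0.052, adjusted p = 9.8e-05), 0.38 (SE 0.060, adjusted p = 5.6e-06) and 0.55 (SE 0.073, adjusted p = 5e-07). All 3 also rose against the earlier controls, by 0.14, 0.16 and 0.20. AKR1C1 has a second, dimmer transcript cluster with a log2 fold change of 0.033 in the first of these comparisons. AKR1B10, a reductase of retinal and aldehydes, passed in none of the 9 comparisons in limma's fit, and lay between -0.024 and 0.15.

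The carbonyl reductase CBR1, by contrast, changed sign between weeks 1 and 5 with CSE 10%. CBR1 (8068401) read 8.60, 8.58 and 8.67 with CSE 10% at 1 week, against 8.93, 8.89 and 9.01 on the control arrays. CBR1 at 5 weeks read 9.09, 9.10 and 9.07 with CSE 10%, against 8.36, 8.63 and 8.67 on the control arrays. The exposed arrays were the lower ones at 1 week and the higher ones at 5 weeks, without overlap. CBR1 had a log2 fold change of -0.32 (SE 0.075, adjusted p = 0.0024) at 1 week and 0.53 (SE 0.075, adjusted p = 1.3e-06) at 5 weeks. With CSE 1% and CSE 5% it was 0.22 and 0.11 at 1 week, neither past the threshold, and 0.66 and 0.54 at 5 weeks, both past it. For CBR1 the 5-week value against the earlier controls was 0.13 (SE 0.065, adjusted p = 0.15) with CSE 10% and 0.25 (SE 0.065, adjusted p = 0.0069) with CSE 1%, of which the second passed. Its relative CBR3 rose with CSE 1% at 3 and 5 weeks (0.25 and 0.19) and with CSE 5% at 1 week (0.26), and fell with CSE 10% at 3 weeks (-0.23, SE 0.078, adjusted p = 0.027).

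EPHX1, microsomal epoxide hydrolase, which opens epoxides formed from aromatic hydrocarbons, was higher with each concentration at 1 week. EPHX1 (7910111) read 12.01, 12.06 and 11.97 with CSE 5% at 1 week, against 11.13, 11.27 and 11.57 on the control arrays. The groups did not overlap, and control replicate 3 was the highest of the controls. The log2 fold changes at 1 week were 0.54 (SE 0.096, adjusted p = 0.00048), 0.69 (SE 0.096, adjusted p = 5.1e-06) and 0.37 (SE 0.096, adjusted p = 0.0064) with CSE 1%, 5% and 10%, the last lost without control replicate 1. At 5 weeks EPHX1 passed with CSE 10% alone (0.26, SE 0.096, adjusted p = 0.02, lost without control replicate 3). EPHX1 passed at each concentration against the earlier controls, by 0.35, 0.27 and 0.43. Its 1-week controls read lower than those of weeks 3 and 5.

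UGDH, which makes UDP-glucuronate for conjugation, differed from control only at 5 weeks among the 9 comparisons. UGDH (8099897) read 12.92, 12.92 and 12.96 with CSE 10% at 5 weeks, against 12.04, 12.47 and 12.48 on the control arrays, and lay between 12.66 and 12.96 (median 12.88) on the earlier controls. Its log2 fold change was 0.60 (SE 0.088, adjusted p = 2e-06) against the 5-week controls and 0.082 (SE 0.076, adjusted p = 0.45) against the earlier ones. With CSE 1% and CSE 5% it was 0.45 and 0.49 against the 5-week controls, and -0.072 and -0.033 against the earlier ones. ABHD4, a hydrolase of N-acyl phospholipids, passed with CSE 1% and CSE 10% at 5 weeks (0.24 and 0.33), and with neither against the earlier controls (0.13 and 0.22). OSGIN1, named for its induction by oxidative stress, fell with CSE 5% and CSE 10% at 5 weeks, with log2 fold changes of -0.31 (SE 0.12, adjusted p = 0.027) and -0.57 (SE 0.12, adjusted p = 0.0002). Neither passed against the earlier controls (0.034 and -0.23).

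CAT, catalase, breaks down hydrogen peroxide. It was lower than control with CSE 5% and CSE 10% at 1 week and higher with each concentration at 5 weeks. CAT (7939298) read 8.78, 8.56 and 8.79 with CSE 10% at 1 week, against 9.55, 9.45 and 9.15 on the control arrays. After 5 weeks CAT read 9.19, 9.23 and 9.33 with CSE 10%, against 8.22, 8.76 and 8.89 on the control arrays. Neither week showed overlap, and the exposed arrays were below the controls at 1 week and above them at 5 weeks. CAT had a log2 fold change of -0.68 (SE 0.12, adjusted p = 0.00014) at 1 week and 0.63 (SE 0.12, adjusted p = 8.7e-05) at 5 weeks. With CSE 5% at 1 week it was -0.43 (SE 0.12, adjusted p = 0.018), a call lost without control replicate 1 or 2 or CSE 5% replicate 1 or 2. With CSE 1% CAT did not pass at 1 week (-0.37). At 3 weeks it was called lower with CSE 1% alone (-0.37), and 5 of 6 refits without 1 array lost that call. Against the earlier controls, on which CAT lay between 9.15 and 9.55 (median 9.45), the value with CSE 10% at 5 weeks was -0.15 (SE 0.11, adjusted p = 0.29). SOD1, the cytosolic superoxide dismutase, rose at 5 weeks with each concentration, by 0.45, 0.41 and 0.45 with CSE 1%, 5% and 10%, and passed with CSE 10% against the earlier controls (0.18, SE 0.068, adjusted p = 0.044).

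Whether a gene followed the concentration was asked between CSE 10% and CSE 1% within each week, a comparison without control arrays. At 1 week 5 of the 32 genes were higher with CSE 10% and 6 lower (6.14% and 10.4% of all genes), at 3 weeks 6 and 4 (7.52% and 8.54%), and at 5 weeks 2 and 5 (5.30% and 7.05%). The 2 genes at 5 weeks were GCLM and ME1. The medians of the 32 genes were 0.0055, 0.052 and -0.0072 at 1, 3 and 5 weeks, against 0.014, 0.0055 and -0.013 over all genes. The count of 6 higher at 3 weeks became 2 without CSE 1% replicate 2 or 3 and 3 without CSE 10% replicate 1 or 2. At 5 weeks the 5 lower became 3 without CSE 1% replicate 1.

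There were 7 genes that differed the same way in more than 1 week, a set chosen after their values were seen. GCLM was higher with CSE 10% by 0.90 (SE 0.17, adjusted p = 0.00041) at 1 week, 0.93 (SE 0.17, adjusted p = 0.00039) at 3 weeks and 0.92 (SE 0.17, adjusted p = 0.00043) at 5 weeks. With CSE 1% it read 9.19, 8.93 and 9.08 in week 1, 9.45, 9.16 and 8.69 in week 3 and 8.62, 8.97 and 9.38 in week 5, all below every CSE 10% array. The step between the 2 concentrations was thus of similar size in each week, while the step to the control was not. ME1 was higher by 0.49, 0.49 and 0.38, and IDH1 by 0.43 and 0.44 at 1 and 3 weeks. The ME1 call at 5 weeks was lost without 5 of its 6 arrays, each in turn. The IDH1 calls were lost without CSE 1% replicate 3 in both weeks, without CSE 10% replicate 2 at 1 week, and without CSE 1% replicate 2 at 3 weeks. TALDO1 was lower with CSE 10% in all 3 weeks, with differences of -0.31 (SE 0.085, adjusted p = 0.015), -0.46 (SE 0.085, adjusted p = 0.00043) and -0.51 (SE 0.085, adjusted p = 0.00011). The first of these was lost without CSE 1% replicate 2 or CSE 10% replicate 2 or 3.

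The other 3 genes were lower with CSE 10% at 3 and 5 weeks. GSR differed by -0.27 (SE 0.065, adjusted p = 0.0061) and -0.33 (SE 0.065, adjusted p = 0.00088), SRXN1 by -0.33 (SE 0.072, adjusted p = 0.002) and -0.33 (SE 0.072, adjusted p = 0.0025), and CBR3 by -0.48 (SE 0.078, adjusted p = 6.7e-05) and -0.34 (SE 0.078, adjusted p = 0.0041). In these weeks each of the 3 had its highest mean with CSE 1% among the exposed groups. TXNRD1 followed the concentration at 1 week (0.52, SE 0.086, adjusted p = 5.8e-05) but not at 3 or 5 weeks, where the difference was 0.093 and 0.03, with 95% intervals of -0.083 to 0.27 and -0.15 to 0.21.

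**Figure D3:**
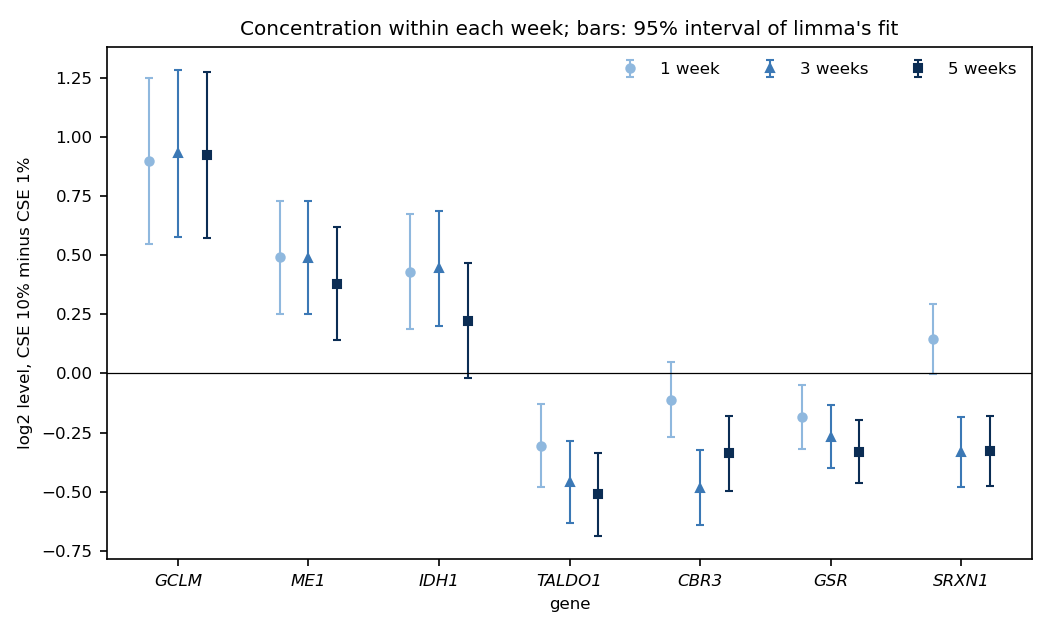
Log2 level with CSE 10% minus CSE 1% within each week (vertical axis) for the 7 genes that differed the same way in more than 1 week; bars give the 95% interval of the fit. GCLM lies at 0.90, 0.93 and 0.92 at 1, 3 and 5 weeks, and TALDO1 at -0.31, -0.46 and -0.51.

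Control cells were compared between weeks because several of these genes turned on them. Between weeks 1 and 3, 4 of the 32 genes were higher at 3 weeks and none lower (6.52% and 5.65% of all genes; by limma none was lower at an unadjusted p under 0.05 either). The 4 were TXN, TXNRD1, NQO1 and EPHX1, with differences of 0.39, 0.40, 0.17 and 0.40. Without control replicate 3 of week 1 or control replicate 1 of week 3 they became 2. Between weeks 3 and 5, 22 of the 32 were lower at 5 weeks and 2 higher (27.8% and 28.3% of all genes), with a median of -0.25 against 0.071 over all genes. All genes were mostly dimmer than these 32, and no share among genes of like level was taken. The level of 18 housekeeping genes differed by -0.114 in the same comparison. What part the narrower spread of the 5-week controls had in this was not tested. Without control replicate 1 at 5 weeks 17 were lower and 1 higher. The largest differences were -1.28 (SE 0.17, adjusted p = 2.2e-06) for GCLM, -1.25 (SE 0.20, adjusted p = 1.4e-05) for SLC7A11 and -0.97 (SE 0.17, adjusted p = 6.2e-05) for NFE2L2. They were -1.04, -1.20 and -0.75 without control replicate 1. MAFF and OSGIN1 were the 2 higher ones, by 0.51 (SE 0.12, adjusted p = 0.00069) and 0.31 (SE 0.12, adjusted p = 0.032). For 21 of the 32 genes the 5-week controls had the lowest mean of all 12 groups, as they did for 25.6% of all genes.

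Whether the effect of CSE 10% differed between weeks 5 and 1 was tested as an interaction. The effect was more positive at 5 weeks for 13 of the 32 genes and more negative for 3 (19.4% and 16.0% of all genes), with a median difference of 0.18 against -0.099 over all genes. The 13 became 8 without control replicate 1 at 5 weeks. For SLC7A11 the difference of effects was 1.48 (SE 0.28, adjusted p = 0.00032): the CSE 10% mean changed by 0.093 between weeks 1 and 5 and the control mean by -1.38. For NFE2L2 it was 1.07 (SE 0.25, adjusted p = 0.002), with a change of -0.087 in CSE 10% cells and -1.16 in control cells. CAT and CBR1 moved on both sides. The CAT mean changed by 0.55 in CSE 10% cells and -0.76 in control cells, a difference of 1.31 (SE 0.17, adjusted p = 3.3e-06). The CBR1 mean changed by 0.46 in CSE 10% cells and -0.39 in control cells, a difference of 0.85 (SE 0.11, adjusted p = 1.3e-06). For MAFG, GCLC and TXNRD1 the difference did not pass, at 0.27 (SE 0.15, adjusted p = 0.18), 0.38 (SE 0.21, adjusted p = 0.16) and -0.16 (SE 0.12, adjusted p = 0.31).

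**Figure D4:**
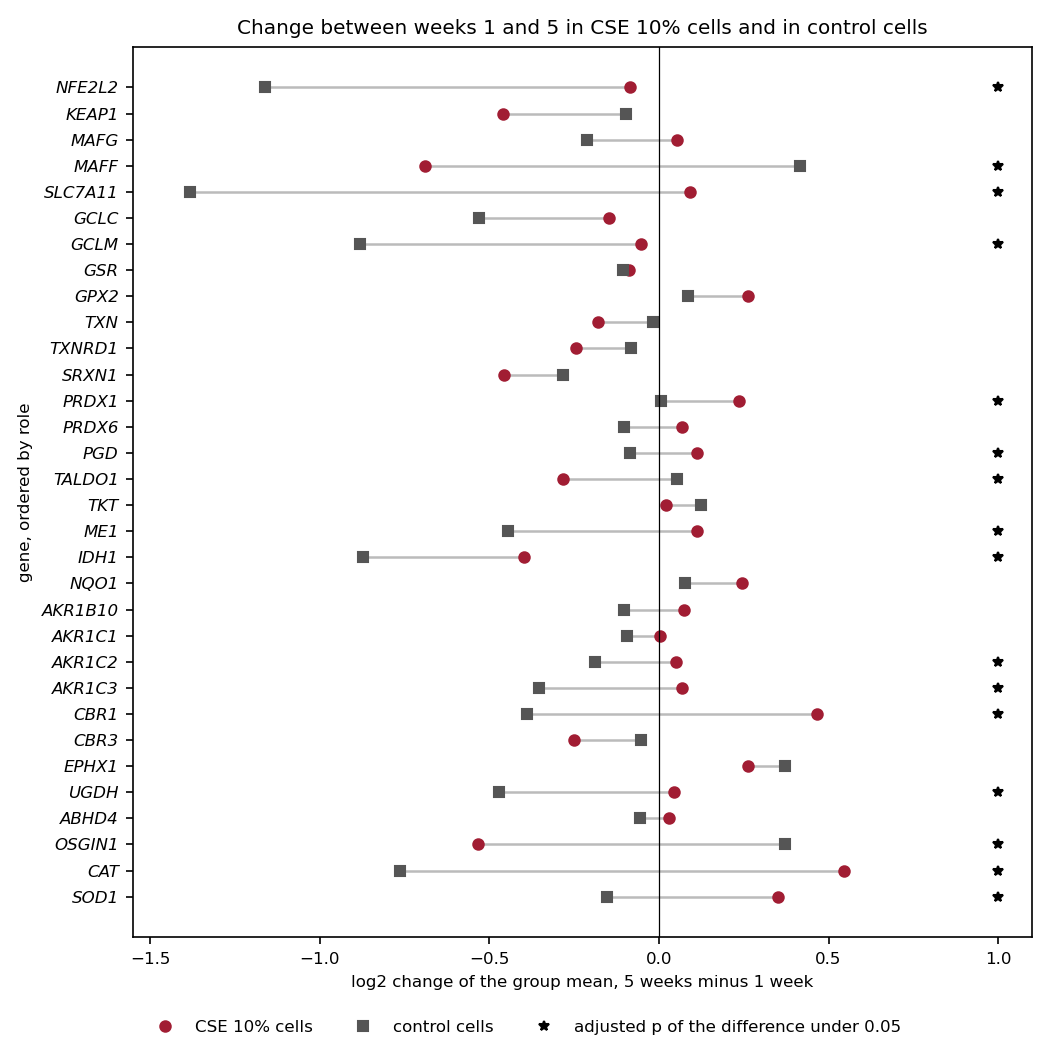
Change of the group mean between weeks 1 and 5 (horizontal axis, log2) for the 32 genes (rows, by role) in CSE 10% cells (circles) and in control cells (squares); a star marks an adjusted p under 0.05 for the difference. For SLC7A11, NFE2L2 and GCLM the circles lie near 0 and the squares between -1.38 and -0.88.

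Some genes rose and fell together over the 12 group means, a description that rests on shared arrays and in part on the low 5-week controls. NFE2L2 and SLC7A11 had the highest correlation (r = 0.96 over 12 group means), and MAFG with GCLC (r = 0.96) and GCLM with ME1 (r = 0.94) were also among the highest pairs. TKT ran against MAFG (r = -0.90). NQO1 ran with NFE2L2 less closely (r = 0.38).

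Other genes of the same response were read for comparison, from 4 lists. For reading their counts, 11.6% of all genes were higher and 11.3% lower with CSE 10% at 1 week, 15.3% and 15.5% at 3 weeks, 27.9% and 40.9% at 5 weeks, and 15.7% and 19.8% at 5 weeks against the earlier controls. Of 23 other NRF2 targets and partners measured (27 listed), 15 rose and 2 fell with CSE 10% at 1 week, 10 rose and 2 fell at 3 weeks, and 15 rose and 3 fell at 5 weeks, with medians of 0.38, 0.18 and 0.38. Against the earlier controls, 8 rose and 5 fell with CSE 10% at 5 weeks. HMOX1, heme oxygenase 1, which breaks down heme, rose with CSE 10% at 1 week (2.02, SE 0.17, adjusted p = 5.3e-10) and 5 weeks (1.09, SE 0.17, adjusted p = 6.6e-06; 1.47, SE 0.15, adjusted p = 9.6e-09 against the earlier controls), and not at 3 weeks (0.13). With CSE 1% at 5 weeks HMOX1 was lower than its controls (-0.76, SE 0.17, adjusted p = 0.00081), and against the earlier controls it did not pass (-0.38). SQSTM1, an autophagy receptor that competes with NRF2 for KEAP1, rose with CSE 1%, 5% and 10% at 1 week, by 0.37, 0.74 and 0.98. The export pump ABCC2 rose with CSE 10% in each week, by 0.56, 0.51 and 0.69 at 1, 3 and 5 weeks, and by 0.50 against the earlier controls.

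The glutathione S-transferases and genes of glutathione turnover (21 measured of 22) had more members lower than higher with CSE 10%. In that comparison 2 rose and 10 fell at 1 week, 1 rose and 9 fell at 3 weeks, and 3 rose and 11 fell at 5 weeks, or 3 and 12 against the earlier controls. With CSE 1% and CSE 5% at 5 weeks the counts were close to even, with 3 higher and 3 lower for CSE 1% and 4 higher and 5 lower for CSE 5%. GSTM4 fell in each week, with log2 fold changes of -1.19 (SE 0.095, adjusted p = 1.3e-10), -0.66 (SE 0.095, adjusted p = 5e-06) and -0.81 (SE 0.095, adjusted p = 6.8e-08), while GSTA4 fell at 1 week (-0.41) and rose at 5 weeks (1.48, SE 0.094, adjusted p = 5e-13; 0.76 against the earlier controls). GSTM genes are close relatives and may share probes. Of 13 other NADPH enzymes measured (14 listed), 5 rose and 2 fell with CSE 10% at 1 week and 4 rose and 5 fell at 5 weeks. IDH2, the mitochondrial counterpart of IDH1, fell with CSE 10% in each week, with -1.50 (SE 0.10, adjusted p = 6.4e-12), -1.01 (SE 0.10, adjusted p = 1.5e-08) and -1.04 (SE 0.10, adjusted p = 4.4e-09). Of 22 other antioxidant enzymes measured (24 listed), 4 rose and 5 fell with CSE 10% at 1 week, and 9 rose and 11 fell at 5 weeks. SOD2, the mitochondrial superoxide dismutase, rose with CSE 10% by 0.70, 0.82 and 1.32 at 1, 3 and 5 weeks, and GPX3, a secreted glutathione peroxidase, fell with CSE 10% by 0.70, 1.62 and 1.45.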

How the data were processed

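RNA of A549 cells was hybridised to Affymetrix Human Gene 1.0 ST arrays. The deposited table holds log2 expression values per transcript cluster, which the authors made with RMA (background correction, quantile normalization and summarization, oligo package, R 2.11.0 per the submitters' notes); the sources used here do not give a genome build. The method can remove a shift common to most genes. It did not leave the arrays equal, as the median of an array ran from 6.72 to 6.91. The values were used as deposited. All 36 arrays entered 1 model of 12 group means in limma 3.58.1 (R 4.3.3), with the empirical Bayes step, and p-values were adjusted over 33297 transcript clusters by the Benjamini-Hochberg method. Residual degrees of freedom were 24 and the prior added 3.91. A gene was called at an adjusted p under 0.05. Percentages of all genes are over 18417 genes read from a transcript cluster with 1 symbol, without matching for level. The fit was checked on simulated data. P-values set a difference between groups against the spread of arrays within groups, pooled over the 12 groups of 3 arrays and moderated by the prior.

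The genes and lists were chosen with earlier results of these data known. Of the 32 genes, those given with values on each array are NFE2L2, KEAP1, NQO1 and GCLM and the 12 others with the largest change in any of the 9 comparisons with control of the same week, and other genes of the pathway were named from the 4 with the smallest p of their list in a comparison. Exposed cells were compared with controls of their week, CSE 10% with CSE 1% within a week, controls between weeks, and the effect of CSE 10% between weeks 5 and 1. Alternatives were other normalizations, thresholds, priors, controls, fits and gene summaries, and each array left out in turn. Motifs were searched on both strands with Python 3.11.15.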

Additional observations from a re-analysis of the deposited data

Results flagged for a closer look

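For 16 of the 32 genes the effect of CSE 10% differed between weeks 5 and 1 in the test of the difference itself (limma, adjusted over all transcript clusters, 3 arrays a group). It was more positive at 5 weeks for 13 and more negative for 3, against 19.4% and 16.0% of all genes. The difference of effects on the log2 scale was 1.48 for SLC7A11 (adjusted p = 0.00032), 1.31 for CAT (adjusted p = 3.3e-06), 1.07 for NFE2L2 (adjusted p = 0.002), 0.85 for CBR1 (adjusted p = 1.3e-06), 0.83 for GCLM (adjusted p = 0.012), 0.56 for ME1 (adjusted p = 0.012), 0.52 for UGDH (adjusted p = 0.0029) and 0.47 for IDH1 (adjusted p = 0.035). It was -1.10 for MAFF (adjusted p = 1.9e-05) and -0.34 for TALDO1 (adjusted p = 0.036). Of the genes not given on each array it was 0.50 for SOD1 (adjusted p = 0.0013), 0.42 for AKR1C3 (adjusted p = 0.0032), 0.24 for AKR1C2 (adjusted p = 0.035), 0.23 for PRDX1 (adjusted p = 0.047), 0.20 for PGD (adjusted p = 0.047) and -0.91 for OSGIN1 (adjusted p = 0.00026).

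In the first 10 of these genes the 2 sides of the difference were unequal. Between weeks 1 and 5 the mean of UGDH changed by 0.045 in CSE 10% cells and -0.47 in control cells, that of ME1 by 0.11 and -0.45, and that of GCLM by -0.053 and -0.88. For TALDO1 it changed by -0.28 in CSE 10% cells and 0.054 in control cells, and for MAFF by -0.69 and 0.41. For IDH1 it changed by -0.40 in CSE 10% cells and -0.87 in control cells. Without control replicate 1 at 5 weeks the differences were 0.58 for GCLM, 0.37 for ME1, 0.23 for IDH1 and -0.35 for TALDO1, none of them past the threshold. The call for IDH1 was lost without 8 of the 12 arrays and that for TALDO1 without 7 of them, each left out in turn. The conflicting week labels and the place apart of the 5-week control arrays touch all 16, and their part was not tested.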

How the results depend on the processing

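The 3 arrays a group and 1 cell line set the precision: each standard error rests on the spread of arrays pooled over groups. The labels of the 5-week controls conflict, and the normalization can remove a shift common to most genes. The level of the 18 housekeeping genes on which arrays were centred differed by -0.163 with CSE 10% and -0.130 with CSE 5% at 3 weeks, by -0.114 in controls of week 5 against week 3 and by -0.109 with CSE 10% at 5 weeks against the earlier controls. Counts that follow are of the 32 genes.

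With only the 2 groups compared in the fit, the genes higher became 0, 5 and 6 with CSE 1%, 5% and 10% at 1 week, 2 with CSE 1% at 3 weeks and 11 with CSE 1% at 5 weeks, and those lower became 0 with CSE 5% and 2 with CSE 10% at 1 week, 1, 0 and 2 with CSE 1%, 5% and 10% at 3 weeks, and 1 and 3 with CSE 1% and 5% at 5 weeks. None (0) then passed the methods' rule with CSE 1% at 5 weeks. Between CSE 10% and CSE 1%, 2 were lower at 3 weeks, and 1 was higher and 1 lower at 5 weeks. In controls, 0 were higher at week 3 than at week 1, and 1 was higher and 11 lower at week 5 than at week 3. With each week fitted alone, 1 was lower with CSE 1% at 1 week, 0 with CSE 5% at 3 weeks, 1 and 3 with CSE 1% and 5% at 5 weeks, and 1 was higher and 2 lower with CSE 10% than with CSE 1% at 5 weeks.

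After centring each array on the housekeeping genes, 3 were higher and 1 lower with CSE 1% at 1 week, 7 higher and 1 lower with CSE 1%, 14 and 0 with CSE 5% and 17 and 1 with CSE 10% at 3 weeks, and 1 lower with CSE 1% at 5 weeks. By the methods' rule 0 then passed with CSE 5% at 1 week and 1 with CSE 10% at 3 weeks. Between CSE 10% and CSE 1% at 1 week 3 were lower, and against the earlier controls 14 were higher with CSE 1%, and 1 lower with CSE 5% and with CSE 10%. With cyclic loess, 2 were lower with CSE 1% at 1 week, 0 passed the methods' rule with CSE 5% at 1 week, 7 were higher with CSE 1% at 3 weeks, and against the earlier controls 3 were lower with CSE 5% and 2 with CSE 10%. With quantile normalization, 1 was lower with CSE 1% at 1 week, 0 with CSE 5% at 3 weeks and 1 with CSE 1% at 5 weeks, and against the earlier controls 3 with CSE 5% and 3 with CSE 10%.

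At an adjusted p under 0.01, 2 were higher with CSE 1% at 1 week and 2 with CSE 5% at 3 weeks, and 0 were lower with CSE 5% at 1 week, 1, 0 and 1 with CSE 1%, 5% and 10% at 3 weeks, and 1 and 2 with CSE 1% and 5% at 5 weeks. Between CSE 10% and CSE 1%, 2 were higher at 3 weeks and 1 at 5 weeks. In controls, 2 were higher at week 3 than at week 1 and 1 at week 5 than at week 3. Against the earlier controls 1 was lower with CSE 5%, and 7 higher and 2 lower with CSE 10%, and 7 effects of CSE 10% were more positive at 5 weeks. Against all 9 control arrays the genes higher were 15, 18 and 16 with CSE 1%, 5% and 10% at 1 week and 17, 18 and 17 at 3 weeks, those lower were 0 with CSE 5% at 1 week, 3 with CSE 5% at 3 weeks and 1 with CSE 1% at 5 weeks, and those past the methods' rule were 2 with CSE 5% at 1 week, 1, 2 and 3 for week 3 and 0, 0 and 1 for week 5. Against the controls of weeks 1 and 3, the 5-week counts were 8 higher and 1 lower with CSE 1%, 10 and 5 with CSE 5%, and 12 and 5 with CSE 10%, with 0 past the methods' rule at each concentration.

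Leaving out each array in turn, the genes higher ranged over 3 to 5, 7 to 10 and 9 to 10 with CSE 1%, 5% and 10% at 1 week, 3 to 4, 2 to 6 and 6 to 9 at 3 weeks, and 17 to 21, 15 to 20 and 18 to 20 at 5 weeks. Those lower ranged over 0 to 1, 0 to 1 and 3 to 5 at 1 week, 1 to 2, 0 to 1 and 1 to 3 at 3 weeks, and 1 to 2, 2 to 4 and 3 to 6 at 5 weeks. Those past the methods' rule ranged over 0 to 2 with CSE 5% at 1 week and 2 to 4, 3 to 4 and 3 to 6 at 5 weeks, stayed at 1 with CSE 10% at 1 week and were 0 elsewhere. Between CSE 10% and CSE 1% they ranged over 4 to 5, 2 to 6 and 1 to 3 higher and 5 to 6, 3 to 6 and 3 to 6 lower at 1, 3 and 5 weeks. In controls 2 to 4 were higher at week 3 than at week 1, and 1 to 2 higher and 17 to 22 lower at week 5 than at week 3. Against the earlier controls 5 to 11, 7 to 13 and 8 to 12 were higher and 1 to 1, 0 to 6 and 2 to 7 lower, and 8 to 13 effects were more positive and 2 to 4 more negative at 5 weeks than at 1.

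Of 152 values of named genes past the threshold, no direction turned when an array was left out (909 refits kept the call and 141 lost it). Only 5-week values were set against the controls of weeks 1 and 3. Against these the value turned for SLC7A11 with CSE 1% (-0.15), ME1 with CSE 1% (-0.010), IDH1 with CSE 1%, 5% and 10% (-0.44, -0.37 and -0.22), UGDH with CSE 1% and 5% (-0.072 and -0.033) and CAT with CSE 1% and 10% (-0.21 and -0.15). Another 13 lost the call, and 22 kept it. Against all 9 controls, where only comparisons of exposed with control cells entered, the 5-week value turned for IDH1 with CSE 1% and 5% (-0.17 and -0.10). Another 10 values lost the call, and 72 kept it. The cause was not tested. With only the compared groups fitted, 32 values lost the call and 84 kept it, and with each week alone 10 lost it and 91 kept it. These settings did not cover all 152 values. Of all 152, the call was lost by 36 at an adjusted p under 0.01, 8 with housekeeping centring and 4 with quantile normalization. It was lost by 2 with cyclic loess, 2 with the mean of a gene's clusters, and 0 with a trended or robust prior or with only the brighter clusters.

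The replicate numbers shared by the groups were tried as a replicate block. Deviations of same-numbered arrays correlated between -0.208 and 0.504, and in 1 of 12 comparisons every pair was over 0.1, so the numbers were not taken as pairs. With the block, 1 gene was lower with CSE 1% at 3 weeks and 1 at 5 weeks, 1 was higher with CSE 10% than with CSE 1% at 5 weeks, and 5 values of named genes lost the call.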
